A study of Mus musculus with 10 samples.

Results

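The 10 genes described here are the transforming growth factor beta (TGF-beta) ligand genes Tgfb1, Tgfb2 and Tgfb3, the receptor genes Tgfbr1, Tgfbr2 and Tgfbr3, the receptor-activated SMAD genes Smad2 and Smad3, and the inhibitory SMAD genes Smad6 and Smad7. They were taken by symbol, and all 10 were found among the 49585 genes of each count table and passed the filter on low counts. The libraries are bulk RNA sequencing from a mouse model of hepatocellular carcinoma (HCC), the Rb family Triple Knock Out (TKO) model, in which the Rb genes that restrain cell cycle entry are deleted. Cells carrying YFP, a reporter of Cre recombination at floxed alleles, were sorted from dissociated livers or visible lesions. YFP reports recombination and does not by itself show loss of the Rb genes. The sample titles name no genotype, and a TKO tag is found only on a further pair of Sox9 columns described below. The columns of the organoid groups compared here carry no such tag, and whether these groups share the deletion was not tested. The groups are Sox9-derived organoids and Ck19-derived organoids, cultures named for a progenitor and a bile duct gene, with 2 libraries each. The labels give no age, no Cre driver, no passage and no number of animals. Samples of Epcam-, Epcamhigh and Thy1+ cells have no column that their names tie to them, so they were not analysed here.

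TGF-beta ligands are secreted bound to a latency peptide and must be released before they can signal. A freed ligand binds the type II receptor, which activates the type I receptor, and this kinase phosphorylates SMAD2 and SMAD3, which enter the nucleus with SMAD4 and change transcription. SMAD6 and SMAD7 are induced by BMP and TGF-beta signals and dampen them, a negative feedback. In the liver the pathway restrains hepatocyte growth, drives stellate cells towards scar formation and acts in bile duct development.

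Promoter sequence was matched in RefSeq tables (build GRCm38.p6) for Tgfb1, Tgfb2, Tgfbr1, Tgfbr2, Smad3 and Smad6. The windows run from 250 bases before to 50 bases after a gene's start. Both sequences below are shown because Tgfb2 was one of the ligands with the widest gap between organoid groups and Smad6 had the lowest ratio in the second set of Sox9 libraries described below. Capitals mark CAGAC, a short SMAD box, in Tgfb2, and GTCTAGAC, the palindromic SMAD binding element, in Smad6. The Tgfb2 window is chr1:186705940-186706239 and the Smad6 window is chr9:64022010-64022309, both on the minus strand.

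Tgfb2: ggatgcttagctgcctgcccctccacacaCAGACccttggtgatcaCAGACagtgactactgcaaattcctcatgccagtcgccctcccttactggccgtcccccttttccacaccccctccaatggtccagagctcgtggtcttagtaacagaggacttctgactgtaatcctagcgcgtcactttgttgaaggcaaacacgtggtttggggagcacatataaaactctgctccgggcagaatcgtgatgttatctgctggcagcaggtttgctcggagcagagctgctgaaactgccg

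Smad6: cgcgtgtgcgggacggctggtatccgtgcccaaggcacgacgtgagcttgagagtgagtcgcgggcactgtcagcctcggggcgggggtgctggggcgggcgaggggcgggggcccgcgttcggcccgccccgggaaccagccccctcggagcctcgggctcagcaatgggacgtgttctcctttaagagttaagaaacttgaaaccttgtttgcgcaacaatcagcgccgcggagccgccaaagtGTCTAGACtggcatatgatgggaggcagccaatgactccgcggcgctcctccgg

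Both motifs were searched on both strands, and neither contains the other. The strings GGCGCC and TGACGT were searched as well, and of these only GGCGCC was found, in a Tgfbr1 window. CAGAC was also found in a Tgfbr1 window and in the Tgfbr2 window. CAGAC was found 2 times in the Tgfb2 window, the first 221 bases before the start, and 49.6% of 32851 promoter windows hold it. GTCTAGAC was found 1 time in the Smad6 window, starting 4 bases before the gene's start, and 70 windows, or 0.213%, hold it. A match is a description of letters, and no binding was measured in these libraries.

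Levels are given in CPM, a gene's fragments scaled to a common total of fragments assigned to genes in each library. The Sox9-derived libraries held 36606008 and 33154972 assigned fragments and the Ck19-derived libraries 31883180 and 32747944. A second pair of columns carries Sox9, a TKO tag and a number, matching the same 2 Sox9-derived samples by name, with 53280136 and 59664959 fragments. The bile duct markers of these TKO-tagged libraries go against an organoid label. Their mean level of Krt19, a bile duct keratin, was 1.11 CPM, against 3053 CPM in the Sox9-derived and 2199 CPM in the Ck19-derived organoids. The summed CPM of 8 epithelial markers was 27357 to 31772 in the Sox9-derived libraries, 624 to 1203 in the TKO-tagged ones and 14370 to 14710 in the Ck19-derived ones. Spp1, a secreted protein gene, was the largest part of this sum in each library. The sum of 8 hepatocyte markers was 275 to 627, 34521 to 50324 and 259 to 288 CPM in the same order of groups. The sum of 10 endothelial markers was 5.31 to 14.998 CPM in the Sox9-derived, 128 to 180 CPM in the TKO-tagged and 10.9 to 16.03 CPM in the Ck19-derived libraries. The sum of 10 blood cell markers was 18.6 to 26.7, 684 to 762 and 47.6 to 85.0 CPM in the same order of groups. Markers at 0 in a group included Serpina1a, Nkg7 and 7 of 12 stellate markers in the Sox9-derived libraries, Pdgfra in the TKO-tagged ones and Dcn in the Ck19-derived ones. The TKO-tagged libraries are therefore given apart, and each result is first given without them. Xist, transcribed from the inactive X chromosome, had 2 fragments in the Sox9-derived pair, 3 in the TKO-tagged pair and 3792 in the Ck19-derived pair, while the Y-linked Eif2s3y had 5998, 7483 and 6, so the sex of the animals and the organoid origin cannot be told apart.

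**Figure D1:**
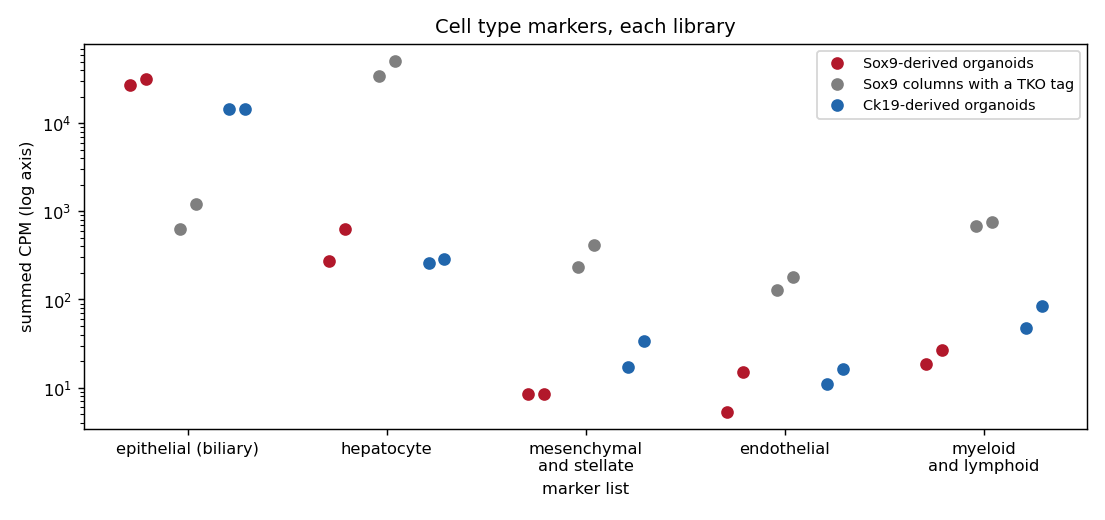
Summed CPM of 5 marker lists on a log axis, 1 point per library, for Sox9-derived organoids (red), Sox9 columns with a TKO tag (grey) and Ck19-derived organoids (blue). The hepatocyte sum lies between 34521 and 50324 CPM in the TKO-tagged libraries, above all 4 organoid libraries, and their epithelial sum lies below all 4.

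None of the 10 genes passed the test between Sox9-derived and Ck19-derived organoids. The widest gaps were in the ligands Tgfb2 and Tgfb3, higher in both Sox9-derived libraries, and in the receptor gene Tgfbr3, which was near the detection floor. Smad2 and Tgfbr2 had almost equal means in the 2 groups. The test was edgeR's quasi-likelihood test with Benjamini-Hochberg adjustment over 16653 genes, which called 95 genes, or 0.570%, at an adjusted p under 0.05. At an unadjusted p under 0.05 it held 2 of the 10 genes, Tgfb2 and Tgfb3, beside 2792 of all genes tested, or 16.8%. Both were also called higher by DESeq2, which called 3.90% of all genes higher, and limma-voom called 0 of the 10. In 6 of the 10 genes the CPM of the 2 groups did not overlap (4 higher in the Sox9-derived organoids and 2 lower), and 51.0% of all genes tested did not overlap either. The epithelial marker sum was also higher in both Sox9-derived libraries. Spp1 was its largest part, with means of 20555 CPM in the Sox9-derived and 7589 CPM in the Ck19-derived organoids. Of the 8 markers, 6 had a log2 fold change above 0 and 2, Krt7 and Cldn4, below 0. The part of these markers in the values of the 10 genes was not tested. In bulk RNA, fewer cells of a type and less RNA per cell cannot be told apart.

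**Figure D2:**
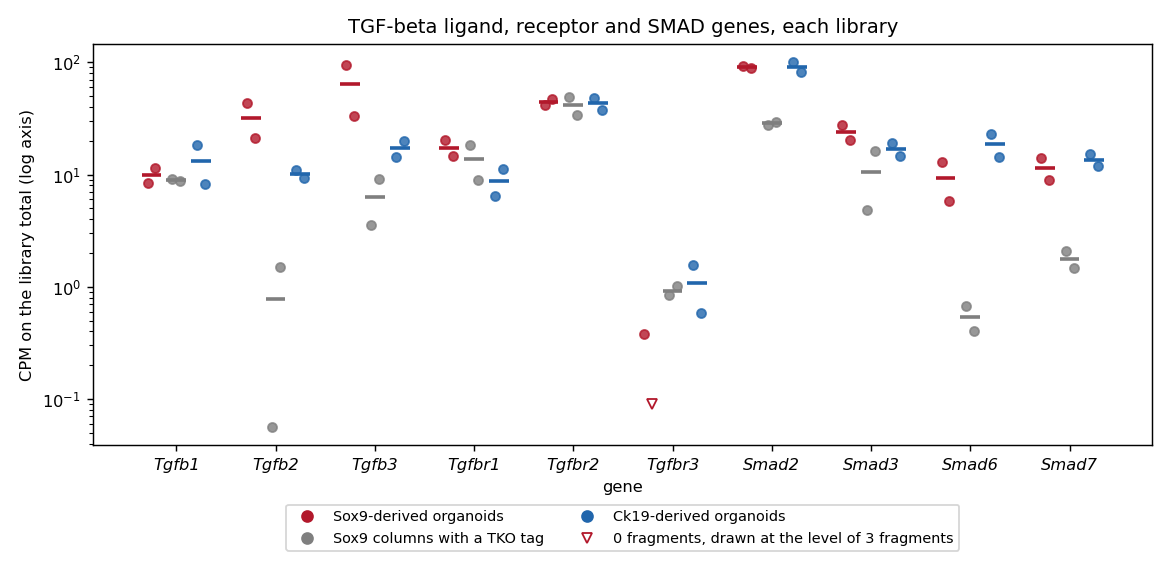
CPM of each of the 10 genes in each library on a log axis, with a bar at the mean, for Sox9-derived organoids (red), Sox9 columns with a TKO tag (grey) and Ck19-derived organoids (blue). An open triangle marks 0 fragments, drawn at the level of 3 fragments, and no mean is drawn where a library is at 0. Tgfb2 and Tgfb3 are highest in both Sox9-derived libraries, and Smad2, Smad6 and Smad7 are lowest in the TKO-tagged libraries.

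Among the ligands, Tgfb1, the most widely studied isoform (ENSMUSG00000002603, chromosome 7, 25687002 to 25705077, plus strand), had 8.36 and 11.5 CPM in the Sox9-derived libraries and 18.4 and 8.18 CPM in the Ck19-derived libraries. These overlap, with the second Sox9-derived library above the second Ck19-derived one. The log2 fold change, Sox9-derived over Ck19-derived here and below, was -0.42 ± 0.50 (SE, adjusted p = 0.728 in edgeR). It changed sign, to 0.29, without Ck19-derived library 1, the higher of its pair.

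Tgfb2, an isoform that depends most on the co-receptor betaglycan (chromosome 1, 186622792 to 186705989, minus strand), had 43.0 and 21.2 CPM in the Sox9-derived libraries and 11.01 and 9.28 CPM in the Ck19-derived libraries. Both Sox9-derived values lie above both Ck19-derived ones, and the first is 2.03 times the second within the Sox9-derived pair. The fold was 3.16, a log2 fold change of 1.66 ± 0.41 (SE, 95% interval 0.60 to 2.72, adjusted p = 0.159 in edgeR), whose promoter letters are printed above. Without Sox9-derived library 2 the log2 fold change was 2.08, and without Sox9-derived library 1 it was 1.08.

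Tgfb3, a ligand best known from palate and lung development (chromosome 12, 86056744 to 86079041, minus strand), had 95.4 and 33.4 CPM in the Sox9-derived libraries and 14.3 and 19.8 CPM in the Ck19-derived libraries. The groups do not overlap, and the Sox9-derived pair itself spans 2.85-fold. Its log2 fold change was 1.91 ± 0.54 (SE, 95% interval 0.52 to 3.31, adjusted p = 0.192 in edgeR), a fold of 3.77. The value was 2.48 without Sox9-derived library 2 (adjusted p = 0.000975 in edgeR) and 0.99 without Sox9-derived library 1 (adjusted p = 0.141), so the call and the size turn on which Sox9-derived library is in the fit. Without Sox9-derived library 2, edgeR called Tgfb2 and Tgfb3 among the 10 genes higher and 2.17% of all genes higher.

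The summed ligand level per kilobase of counted exon was 37.3 and 15.8 CPM per kb in the Sox9-derived libraries and 9.79 and 9.09 CPM per kb in the Ck19-derived libraries. Per kilobase, Tgfb3 was 17.0 and 4.33 times Tgfb1 in the Sox9-derived libraries and 1.16 and 3.61 times in the Ck19-derived ones. Tgfb2 was 4.48 and 1.60 times Tgfb1 in the Sox9-derived libraries, and 0.520 and 0.988 times in the Ck19-derived ones. Tgfb3 was the most abundant ligand per kilobase in all 4 organoid libraries.

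Among the receptors, Tgfbr1, the type I receptor kinase (chromosome 4, 47353222 to 47414931, plus strand), had 20.1 and 14.5 CPM in the Sox9-derived libraries and 6.46 and 11.1 CPM in the Ck19-derived libraries. The groups do not overlap, but the log2 fold change of 0.98 ± 0.40 (SE, 95% interval -0.05 to 2.00) had an adjusted p of 0.316 in edgeR. Tgfbr2, the type II receptor that binds the ligand first (chromosome 9, 116084293 to 116175360, minus strand), had 41.3 and 46.8 CPM in the Sox9-derived libraries and 48.3 and 37.9 CPM in the Ck19-derived libraries. These overlap fully, with a log2 fold change of 0.03 (95% interval -0.56 to 0.63, adjusted p = 0.963 in edgeR).

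Tgfbr3, which encodes betaglycan, a co-receptor that presents ligand to the type II receptor (chromosome 5, 107106570 to 107289629, minus strand), was barely detected. It had 14 and 0 fragments, 0.382 and 0 CPM, in the Sox9-derived libraries and 50 and 19 fragments, 1.57 and 0.580 CPM, in the Ck19-derived libraries. A count of 0 in the second Sox9-derived library allows up to 0.0905 CPM, the level of 3 fragments, for counting error only. Both Ck19-derived values lie above both Sox9-derived ones, and the log2 fold change of -2.46 ± 1.60 (SE, adjusted p = 0.509 in edgeR) has an interval that spans 0. Without Sox9-derived library 2 it was -1.49 (adjusted p = 0.592 in edgeR), without Ck19-derived library 1 it was -1.57, and without Sox9-derived library 1 the group is at 0 fragments, so the fitted size depends on the prior count (adjusted p = 0.0574 in edgeR). Tgfbr2 exceeded Tgfbr1 per kilobase in each organoid library, 1.64 and 2.58 times in the Sox9-derived and 5.97 and 2.72 times in the Ck19-derived libraries.

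Of the receptor-activated SMAD genes, Smad2 (chromosome 18, 76241580 to 76305731, plus strand) was the steadiest. It had 93.1 and 89.0 CPM in the Sox9-derived libraries and 100.2 and 82.8 CPM in the Ck19-derived libraries, with a log2 fold change of -0.01 ± 0.18 (SE, 95% interval -0.48 to 0.47, adjusted p = 0.994 in edgeR). The interval leaves room for differences up to about these bounds in either direction. Smad3, which shares the C-terminal phosphorylation motif with SMAD2 but binds DNA directly (chromosome 9, 63646767 to 63757994, minus strand), had 27.6 and 20.1 CPM in the Sox9-derived libraries and 19.3 and 14.6 CPM in the Ck19-derived libraries. The lower Sox9-derived value lies just above the higher Ck19-derived one, and the log2 fold change was 0.50 ± 0.31 (SE, adjusted p = 0.486 in edgeR). Smad2 was the more abundant of the pair per kilobase, 5.26 and 6.90 times Smad3 in the Sox9-derived libraries and 8.12 and 8.87 times in the Ck19-derived libraries.

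Of the inhibitory SMAD genes, Smad6, best known for blocking BMP receptor signals (chromosome 9, 63953076 to 64022059, minus strand), had 12.9 and 5.82 CPM in the Sox9-derived libraries and 22.8 and 14.4 CPM in the Ck19-derived libraries. The groups do not overlap, with a log2 fold change of -0.99 ± 0.50 (SE, 95% interval -2.28 to 0.30, adjusted p = 0.400 in edgeR). It was -1.66 without Sox9-derived library 1 (adjusted p = 0.0657 in edgeR) and -0.53 without Sox9-derived library 2 (adjusted p = 0.592), and -0.61 without Ck19-derived library 1. Smad7, which blocks type I receptors of both branches (chromosome 18, 75367529 to 75395935, plus strand), had 14.0 and 8.87 CPM in the Sox9-derived libraries and 15.1 and 12.0 CPM in the Ck19-derived libraries. These overlap, with a log2 fold change of -0.25 ± 0.36 (SE, adjusted p = 0.792 in edgeR). Smad7 stood at 0.769 and 1.08 times Smad6 per kilobase in the Sox9-derived libraries and at 0.469 and 0.593 times in the Ck19-derived libraries.

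Per kilobase, Smad2 was highest in both groups, at 25.7 CPM per kb in the Sox9-derived and 25.8 CPM per kb in the Ck19-derived organoids. In the Sox9-derived organoids Tgfb3 followed at 19.0 CPM per kb, but its libraries, at 28.2 and 9.88 CPM per kb, overlap those of Smad2. Tgfb2, at 5.54, and Tgfbr2, at 5.38 CPM per kb, came next and overlap each other. Smad3 at 4.31 CPM per kb and Smad6, Tgfbr1, Smad7 and Tgfb1, from 2.92 down to 1.97 CPM per kb, followed, and each overlaps its neighbour. In the Ck19-derived organoids Smad6, Tgfbr2 and Tgfb3, from 5.80 down to 5.05 CPM per kb, came after Smad2 and overlap one another in that order, and Tgfbr3 was last in both groups.

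**Figure D3:**
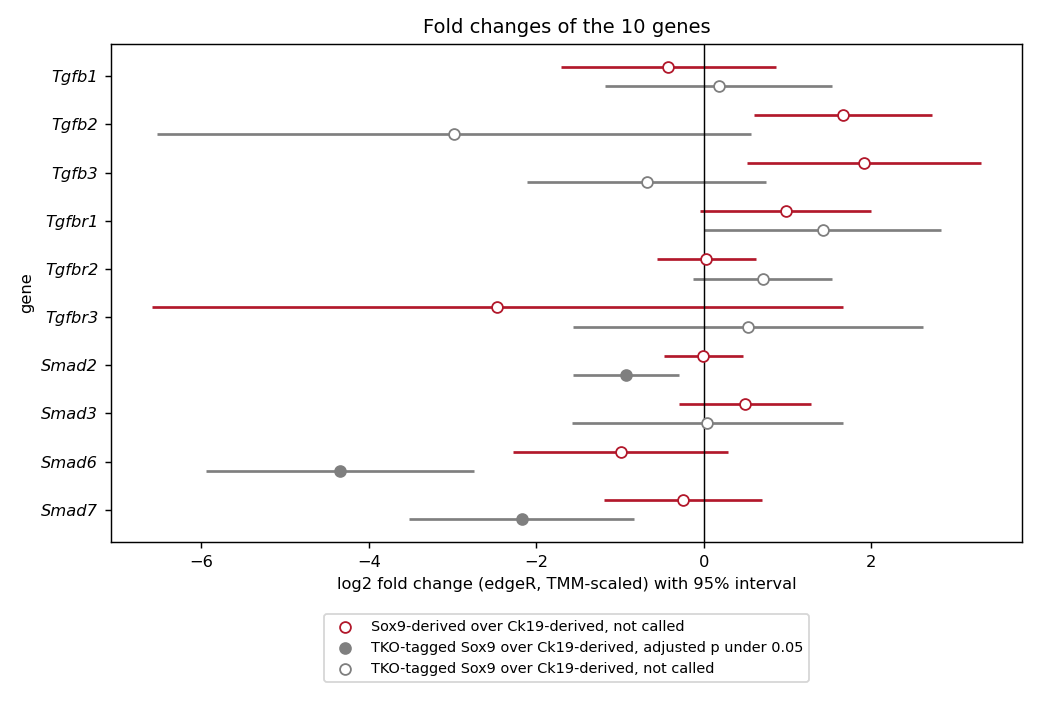
Log2 fold changes of the 10 genes from edgeR with TMM scaling and their 95% intervals, for Sox9-derived over Ck19-derived organoids (red) and TKO-tagged Sox9 over Ck19-derived libraries (grey). Filled points have an adjusted p under 0.05, which Smad2, Smad6 and Smad7 reach with the TKO-tagged libraries, and no red point is filled.

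The TKO-tagged libraries were set against the same 2 Ck19-derived libraries, so both comparisons share their controls. Smad6, Smad7 and Smad2 were lower in the TKO-tagged libraries, and the other 7 genes did not pass the test. This is 3 of 10 genes called lower, beside 14.0% of all 17938 genes tested. In 5 of the 10 genes, all lower in the TKO-tagged libraries, the CPM of the 2 groups did not overlap, and 77.9% of all genes did not overlap. The marker sums above moved with these results: edgeR called 8 of 8 hepatocyte, 8 of 11 tested stellate, 10 of 10 endothelial and 8 of 9 tested blood cell markers higher and 5 of 8 epithelial markers lower in the TKO-tagged libraries, and their part in the results was not tested. In the organoid fit, 3 genes of each of the hepatocyte, stellate, endothelial and blood cell lists passed the count filter. Most markers that rose therefore passed it here only through the TKO-tagged libraries and could only be called higher. Of the epithelial markers called lower, Krt7 and Cldn4 passed it through the Ck19-derived libraries, with 35 and 44 fragments in the TKO-tagged pair. TMM, a scaling that sets most genes to no change, moved the median log2 fold change of all genes to -0.07, against -0.82 on library totals, so each fold is read relative to that median.

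Smad6 had 0.676 and 0.402 CPM in the TKO-tagged libraries and 22.8 and 14.4 CPM in the Ck19-derived libraries. Both TKO-tagged values lie far below both Ck19-derived ones, with a log2 fold change of -4.35 ± 0.62 (SE, adjusted p = 0.0104 in edgeR). Smad7 had 2.08 and 1.46 CPM in the TKO-tagged libraries and 15.1 and 12.0 CPM in the Ck19-derived libraries, with a log2 fold change of -2.17 ± 0.52 (SE, adjusted p = 0.0360 in edgeR). Smad2 had 27.7 and 29.3 CPM in the TKO-tagged libraries, against 100.2 and 82.8 CPM in the Ck19-derived libraries, with a log2 fold change of -0.93 ± 0.25 (SE, adjusted p = 0.0464 in edgeR). Smad2 missed the threshold when either TKO-tagged library was left out, with adjusted p of 0.0549 and 0.0619 in edgeR, and with limma-voom on all libraries, with an adjusted p of 0.0545. In edgeR none of the 3 genes passed without Ck19-derived library 1 (adjusted p of 0.110 for Smad6, 0.260 for Smad7 and 0.339 for Smad2) or without Ck19-derived library 2 (0.0674, 0.196 and 0.209 in the same order).

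Tgfb2 was at 0.0563 and 1.49 CPM in the TKO-tagged libraries and at 11.01 and 9.28 CPM in the Ck19-derived libraries. The TKO-tagged pair spans 26.5-fold, and the log2 fold change was -2.98 ± 1.38 (SE, adjusted p = 0.175 in edgeR). The log2 fold change was -2.02 without TKO-tagged library 1 and -6.59 without library 2, a fitted value that rests on the 3 Tgfb2 fragments of TKO-tagged library 1. Tgfb3 had 3.58 and 9.10 CPM in the TKO-tagged libraries, below the 14.3 and 19.8 CPM of the Ck19-derived libraries, with a log2 fold change of -0.68 ± 0.56 (SE, adjusted p = 0.412 in edgeR). Tgfb1 had 9.08 and 8.83 CPM in the TKO-tagged libraries, inside the range of the Ck19-derived pair.

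Tgfbr1 had 18.5 and 9.0 CPM in the TKO-tagged libraries and 6.46 and 11.1 CPM in the Ck19-derived libraries, with a log2 fold change of 1.42 ± 0.55 (SE, adjusted p = 0.121 in edgeR). Tgfbr2 had 49.0 and 33.9 CPM in the TKO-tagged libraries and 48.3 and 37.9 CPM in the Ck19-derived ones, and its log2 fold change of 0.70 (adjusted p = 0.171 in edgeR) was -0.06 on library totals. DESeq2 called Tgfbr1 higher (adjusted p = 0.0483), beside 19.9% of all genes. Tgfbr1 and Tgfbr2 also stood higher without TKO-tagged library 2. That fit takes its spread from the Ck19-derived pair alone, so no call is read from it. On library totals, Tgfbr2 in TKO-tagged library 1 was at 49.0 CPM, near the 48.3 CPM of Ck19-derived library 1. Tgfbr3 had 0.845 and 1.01 CPM in the TKO-tagged libraries, with 45 and 60 fragments, and lies between the Ck19-derived values of 1.57 and 0.580 CPM. Smad3 had 4.82 and 16.1 CPM in the TKO-tagged libraries and 19.3 and 14.6 CPM in the Ck19-derived ones, an overlap.

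The other genes of the pathway were followed in 4 lists. Between Sox9-derived and Ck19-derived organoids edgeR called 0 genes in each list. Over all genes, 16.8% had an unadjusted p under 0.05, and DESeq2 called 3.90% higher and 5.18% lower, and the lists' counts are read beside these shares. The list of the latent complex and its activation had 13 of 16 genes tested, 5 at an unadjusted p under 0.05, 4 called higher by DESeq2 and 0 by limma-voom, and a median log2 fold change of 1.09 beside 0.01 for all genes. Mmp14, a membrane protease that can release latent TGF-beta, averaged 141 ± 28.3 CPM in the Sox9-derived and 139 ± 10.5 CPM in the Ck19-derived organoids (SD, n = 2 each). Itgb5, an integrin subunit that pairs with the alpha v chain, averaged 106 ± 27.3 CPM in the Sox9-derived and 32.7 ± 16.7 CPM in the Ck19-derived organoids (SD, n = 2 each), with a log2 fold change of 1.69 ± 0.44 (SE, adjusted p = 0.164 in edgeR). Itgb6, the epithelial integrin subunit that activates latent ligand, averaged 45.3 ± 6.07 CPM in the Sox9-derived and 20.5 ± 0.826 CPM in the Ck19-derived organoids (SD, n = 2 each), with a log2 fold change of 1.14 ± 0.22 (SE, adjusted p = 0.116 in edgeR).

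The list of SMAD partners and modulators had 19 of 20 genes tested, 4 at an unadjusted p under 0.05, 1 called higher by DESeq2 and 0 by limma-voom, and a median log2 fold change of 0.29. Fkbp1a, which holds the type I receptor inactive, Tgif1, a corepressor of SMAD complexes, and Strap, a receptor-associated protein, had log2 fold changes of 0.18, -0.11 and 0.29 (adjusted p of 0.604, 0.862 and 0.504 in edgeR). The list of activin and BMP ligands, receptors and antagonists had 16 of 23 genes tested, 3 at an unadjusted p under 0.05, 2 called lower by DESeq2 and 0 by limma-voom, and a median of 0.21. Gdf15, a stress-induced ligand of the superfamily, averaged 106 ± 17.0 CPM in the Sox9-derived and 350.2 ± 44.5 CPM in the Ck19-derived organoids (SD, n = 2 each), with a log2 fold change of -1.72 ± 0.21 (SE, adjusted p = 0.0630 in edgeR). Bmp4, a ligand of the BMP branch, averaged 14.6 ± 4.68 and 35.8 ± 3.31 CPM in the same order (SD, n = 2 each, adjusted p = 0.150 in edgeR), and its receptor gene Bmpr1a 62.9 ± 0.586 and 54.1 ± 4.95 CPM.

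The list of TGF-beta and BMP response genes had 17 of 22 genes tested, 9 at an unadjusted p under 0.05, 5 called higher and 3 lower by DESeq2 and 0 by limma-voom, and a median log2 fold change of 0.21. Id2, an inhibitor of bHLH transcription factors and a BMP target, averaged 2093 ± 193 CPM in the Sox9-derived and 2175 ± 234 CPM in the Ck19-derived organoids (SD, n = 2 each). Cdkn1a, the cell cycle inhibitor p21, averaged 928 ± 63.4 CPM in the Sox9-derived and 1515 ± 229 CPM in the Ck19-derived organoids (SD, n = 2 each), with a log2 fold change of -0.71 ± 0.18 (SE, adjusted p = 0.165 in edgeR). Ccn2, a matricellular target of TGF-beta and YAP signals, averaged 463 ± 156 CPM in the Sox9-derived and 916 ± 157 CPM in the Ck19-derived organoids (SD, n = 2 each, adjusted p = 0.196 in edgeR). Among the epithelial markers of these organoids, edgeR called 2 of 8 higher in the Sox9-derived group, Sox9 itself (565 against 87.7 CPM, adjusted p = 0.0386) and the secreted protein gene Spp1 (20555 against 7589 CPM, adjusted p = 0.0467). Both calls were lost in edgeR without Ck19-derived library 1 (adjusted p of 0.418 for Sox9 and 0.467 for Spp1) or library 2 (0.401 and 0.446), and under the replicate block (0.0983 for each), at log2 fold changes of 2.51 to 2.86 for Sox9 and 1.42 to 1.44 for Spp1.

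**Figure D4:**
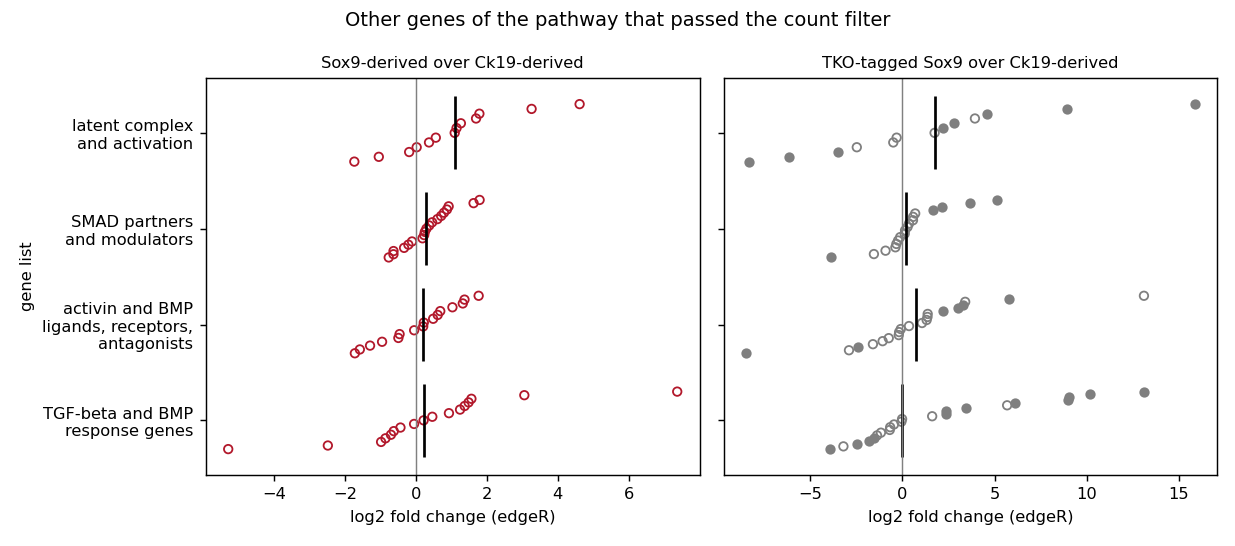
Log2 fold changes of every tested gene of the 4 pathway lists, for Sox9-derived over Ck19-derived organoids (left) and TKO-tagged Sox9 over Ck19-derived libraries (right), on horizontal axes of different range. Filled points have an adjusted p under 0.05 in edgeR, and the vertical black mark is the list's median, 1.09 for the latent complex list on the left, where no point is filled. On the right, Dcn, Inhbe, Tagln, Vim and Snai2 have 0 or 1 fragments in the Ck19-derived libraries and Bmp7 has 0 in the TKO-tagged ones, so the place of these points depends on the prior count.

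With the TKO-tagged libraries edgeR called 5 of 13 tested genes of the latent complex list higher and 3 lower, beside 2683 of all 17938 genes higher, or 15.0%, and 2507 lower, or 14.0%. Dcn, a stellate cell proteoglycan that binds TGF-beta, had a mean of 134 CPM in the TKO-tagged libraries and 0 fragments in the Ck19-derived ones, and Nrros, a myeloid cell protein that holds latent ligand, had 19.0 and 0.0623 CPM in the same order. Bgn, a related proteoglycan, rose too, at 45.2 against 3.23 CPM. Itgb6 had 0.0345 CPM in the TKO-tagged and 20.5 CPM in the Ck19-derived libraries (log2 fold change -8.35 ± 0.70, SE, adjusted p = 0.00260 in edgeR). The latent TGF-beta binding proteins Ltbp1, with 0.0784 against 9.68 CPM, and Ltbp3, with 1.43 against 27.0 CPM, fell as well. Dcn and Nrros passed the count filter in this comparison only through the TKO-tagged libraries and could only be called higher. Itgb6 and Ltbp1 had 4 and 9 fragments in the TKO-tagged pair. Both passed the filter only through the Ck19-derived libraries and could only be called lower. The counts that rose and fell are therefore a description of the list. The listed genes that rose include genes known from stellate and myeloid cells, whose markers were also higher in these libraries, and the part of those cells was not tested.

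Of the SMAD partners and modulators 4 of 18 rose and 1 fell in the TKO-tagged libraries, beside 15.0% of all genes higher and 14.0% lower, which the list's counts do not clearly exceed. Eng, a co-receptor gene of endothelial cells, averaged 16.3 CPM in the TKO-tagged and 0.802 CPM in the Ck19-derived libraries, Acvrl1, an endothelial type I receptor, 7.69 and 1.03 CPM, and the pseudoreceptor gene Bambi 24.6 and 9.46 CPM. The call of Acvrl1 was lost with limma-voom (adjusted p = 0.0562) and, in edgeR, on library totals (adjusted p = 0.0601), as was that of Bambi on library totals (adjusted p = 0.0700). Pmepa1, a TGF-beta target that limits SMAD signalling, averaged 2.28 ± 0.859 CPM in the TKO-tagged and 57.8 ± 5.36 CPM in the Ck19-derived libraries (SD, n = 2 each), with a log2 fold change of -3.90 ± 0.44 (SE, adjusted p = 0.00551 in edgeR). Of the activin and BMP list 4 of 20 rose and 2 fell, shares near the 15.0% higher and 14.0% lower of all genes, so the genes named next are a description of the list and not a result about it. The rises include Fst, an activin antagonist (39.7 CPM in the TKO-tagged and 7.01 CPM in the Ck19-derived libraries), and the activin subunit genes Inhba (16.1 and 3.40 CPM) and Inhbb (8.51 and 3.12 CPM), and Gdf15 fell, with 38.3 against 350.2 CPM. Inhbb missed the threshold on library totals (adjusted p = 0.0791 in edgeR).

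Of the response genes 8 of 22 rose and 4 fell in the TKO-tagged libraries, beside 15.0% of all genes higher and 14.0% lower. The count that fell is near the share of all genes. Among the rises, Col1a1, Tagln, Snai1, Snai2, Acta2 and Vim had means of 0 to 0.216 CPM in the Ck19-derived libraries. They passed the count filter only through the TKO-tagged libraries and could only be called higher. The count that rose is therefore a description and not a result about the list. The intermediate filament gene Vim had 99.6 CPM in the TKO-tagged and 0.0153 CPM in the Ck19-derived libraries, the transcription factor gene Snai2 13.0 and 0.0153 CPM, and the smooth muscle actin gene Acta2 52.3 and 0.171 CPM. Ccn2 fell, with 35.7 ± 15.2 CPM in the TKO-tagged and 916 ± 157 CPM in the Ck19-derived libraries (SD, n = 2 each), a log2 fold change of -3.93 ± 0.40 (SE, adjusted p = 0.00445 in edgeR). Ccn1, a matricellular protein gene, fell to 24.8 CPM in the TKO-tagged libraries, against 234 CPM in the Ck19-derived ones, and Id1, a BMP target, to 93.7 against 556 CPM. Summed stellate markers were 8.38 to 8.47 CPM in the Sox9-derived, 236 to 412 CPM in the TKO-tagged and 17.0 to 33.7 CPM in the Ck19-derived libraries, and Dcn was at 0 in all 4 organoid libraries. Of the 20 list genes named with the TKO-tagged libraries, 14 missed the threshold without 1 of the Ck19-derived libraries and 6 kept their call without either, namely Acta2, Ccn2, Dcn, Itgb6, Nrros and Vim.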

How the data were processed

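Bulk RNA was sequenced from 10 labelled mouse liver samples, 5 groups of 2. The authors deposited unnormalized counts of fragments for each gene. Per the file headers, featureCounts (v1.5.0-p3) assigned primary alignments whose ends both mapped, at a minimum mapping quality of 10, to Ensembl 87 gene models on GRCm38. Strand was not used, so antisense overlaps could not be separated. The submitters' processing notes also name STAR 2.5.4b, edgeR and limma, and the builds mm9 and hg19, with no role for each. Of 10 count columns in 2 tables, 6 were tied to samples by name and 4 were not used. No label names molecular identifiers, so PCR copies may be counted and floors cover counting error only.

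Counts were filtered with filterByExpr (minimum count 10), scaled by TMM and tested with edgeR 4.0.16 in R 4.3.3, two-sided, with a Benjamini-Hochberg adjusted p threshold of 0.05. The fit of the 4 organoid libraries replaced the planned fit of all groups, and 3 planned comparisons were not analysed here. The TKO-tagged libraries, from the other table, were fitted with the 2 Ck19-derived libraries in their place. Exon bases shared with another gene were 2.14% in Tgfb2, 4.82% in Tgfb3 and 4.54% in Tgfbr3, and those genes' counts are uncertain to that extent. The common biological coefficient of variation was 0.434. Chi-square per gene within a replicate pair was 130 for the Sox9-derived, 448 for the TKO-tagged and 70.7 for the Ck19-derived libraries, far above sampling noise, so all libraries were kept apart. The labels do not say that replicates came from separate animals or cultures, so p-values measure only the spread between these libraries, which may be technical. The edgeR fit of the 4 organoid libraries was tested on simulated data with known changes, and the other fits were not.

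Named genes are the 10 members, up to 3 genes called higher and 3 called lower of each list with a mean of at least 1 CPM, or else the 3 with the highest mean. The rule also names the 3 profiles nearest to Tgfbr3, which are not reported here. The members and lists were chosen with earlier results of these data known. Alternatives were relative log expression factors, DESeq2 1.42.0, limma-voom in limma 3.58.1, no filter beyond 1 fragment, a replicate block, leaving out each library, and the TKO-tagged libraries. Alternatives within the TKO-tagged comparison were chosen after seeing the data.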

Additional observations from a re-analysis of the deposited data

Results flagged for a closer look

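The TKO-tagged Sox9 libraries carry a signal outside the organoid comparison. Alb, the main plasma protein gene of hepatocytes, had a mean of 17449 CPM in the TKO-tagged libraries, against 5.32 CPM in the Sox9-derived and 14.7 CPM in the Ck19-derived organoids. It stood above the level of both organoid groups in data that the organoid comparison does not use.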

How the results depend on the processing

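Between Sox9-derived and Ck19-derived organoids the 95 genes called became 1512 with DESeq2, 506 with no filter on low counts, 0 with the replicate block (2665 at an unadjusted p under 0.05) and 5190 with the TKO-tagged libraries, and 0 to 1394 when each library was left out. The count was 1394 without Sox9-derived library 1, 975 without library 2, and 0 without either Ck19-derived library (1692 and 1611 at an unadjusted p under 0.05). A fit that leaves 1 library in a group assumes that it varies like the other group. Same-numbered libraries correlated at 0.0769 in their deviations, so the numbers were not taken to pair them. Of the 10 genes, those called higher numbered 2 with DESeq2, beside 3.90% of all genes. Those called lower numbered 3 with the TKO-tagged libraries, beside 14.0% of all genes.

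With the TKO-tagged libraries, 881 to 6976 genes were called with each library left out, 918 without Ck19-derived library 1 and 881 without library 2. Which of the 10 genes were called turned on the library left out, and Tgfb2 took the place of Smad2 without TKO-tagged library 1 or 2. Each such fit leaves 1 library in a group, so its calls are not counted here. With all libraries, DESeq2 called 1 of the 10 genes higher (Tgfbr1, beside 19.9% of all genes). Limma-voom called 2 lower (Smad6 and Smad7), beside 2815 of all 17938 genes. The summed level of the 10 genes was 380.3 CPM in the Sox9-derived and 288.9 CPM in the Ck19-derived organoids with the 100 most abundant genes out of the totals, against 303.8 and 234.1 CPM.

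Signs turned in these cases, and the cause was not tested. With the TKO-tagged libraries in place of the Sox9-derived ones, log2 fold changes were 0.18 for Tgfb1, -2.98 for Tgfb2, -0.68 for Tgfb3, 0.53 for Tgfbr3, -0.50 for Mmp14, -0.18 for Bmpr1a, -8.35 for Itgb6 and -2.68 for Spp1. With each library left out in turn, the range was -0.92 to 0.29 for Tgfb1, -0.16 to 0.23 for Tgfbr2, -0.17 to 0.15 for Smad2, -0.59 to 0.040 for Smad7, -0.18 to 0.21 for Mmp14, -0.19 to 0.068 for Id2 and -0.39 to 0.20 for Tgif1. Smad2 was 0.0030 with limma-voom, 0.0075 with no filter and 0.0016 with the replicate block. Against the Ck19-derived libraries, the TKO-tagged values on library totals were -0.57 for Tgfb1, -0.057 for Tgfbr2, -0.21 for Tgfbr3 and -0.69 for Smad3, which was -0.12 with limma-voom. With each library left out of that comparison, the range was -0.33 to 0.90 for Tgfb1, -0.056 to 1.43 for Tgfbr3 and -0.96 to 0.67 for Smad3.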
